A study of Solea senegalensis with 15 samples.

Results

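The testis of Senegalese sole (Solea senegalensis), a flatfish, was compared between males given recombinant luteinising hormone (rLh) and males given saline. The comparison took in every gene with at least 50 counts in at least 1 of the 10 fish concerned, which were 21097 of the 28921 genes counted, in 10 of the 15 fish sequenced. The rLh and saline groups held 5 fish each, numbered 63, 64, 66, 67 and 68 in both. A further 5 fish, given recombinant follicle-stimulating hormone (rFsh), entered the same fit and served for a direct test of rLh against rFsh. The fish were 2-year-old F1 males of wild-caught parents, with a body mass of 347 g, and received intramuscular injections of 18 µg/kg rLh, 18 µg/kg rFsh or saline on 1 day of each week for 6 weeks, 8 fish per group. Libraries of 5 fish per group are in the count table, whereas the labels and the methods state 4 per group, and results are also given for 12 fish with 4 per group (without rLh 68, rFsh 62 and saline 68). All groups kept their own pituitary, the hormones were single-chain recombinant proteins of the species, and 1 dose and 1 time were sampled. The RNA came from pieces of whole testis, in which fewer cells of a type and less RNA per cell cannot be told apart.

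Lh is a pituitary glycoprotein hormone that acts through its receptor, Lhcgr, a G protein-coupled receptor that raises cAMP. In fish testis its classical target is the Leydig cell, where it drives androgen production from cholesterol, with 11-ketotestosterone as the main circulating androgen. Fsh acts mainly through Sertoli cells, which enclose the germ cells in cysts and form the blood-testis barrier with their junctions. Inside the cysts, spermatogonia divide by mitosis, spermatocytes replicate their DNA and pass through meiosis, and spermatids build the flagellum and condense their chromatin. In sole, spermatids leave the cysts before they mature, and Lhcgr has also been placed on spermatids.

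The libraries held between 53185656 and 64531156 counts in the rLh fish and between 67799189 and 109801527 in the saline fish, with no overlap (exact two-sided permutation test over 252 divisions, p = 0.00794, the smallest these groups allow). Depth therefore moved with treatment. With every library thinned to the depth of the smallest, an alternative chosen after the data were seen, 1197 genes were higher and 1508 lower at an unadjusted p under 0.05, close to the counts at full depth given below. The germ cell gene ddx4 had between 21311 and 47308 counts in every one of these fish, and the Sertoli cell growth factor gsdf between 98346 and 272207, as the testis label calls for. The receptor gene fshr and the synaptonemal complex gene sycp3 were listed at 0 counts in all 15 fish, so neither could be read. Counting did not mark strand, so that overlapping and antisense genes share reads, and levels are given as CPM, counts per 1000000 counts of the library after TMM scaling, which compare fish and not genes. Genes written as LOC numbers carry the human match printed in the study's tables where there is one.

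Differences after rLh were small and variable between fish. edgeR's quasi-likelihood test called 0 of the 21097 genes at an adjusted p of 0.05, the smallest adjusted p being 0.261. At an unadjusted p under 0.05, 1244 genes (5.90%) were higher after rLh and 1543 (7.31%) were lower. A log2 fold change over 0 was found in 51.5% of all tested genes. Every list count below is to be read beside these shares. A list count with a fish left out is to be read beside the count of all tested genes without that fish. Those moved too, to 931 higher and 791 lower without rLh 64, and 1939 and 2118 without saline 68. DESeq2, the tool of the study, called 47 genes (0.223%) on the same counts, 26 higher (0.123%) and 21 lower (0.0995%), and limma-voom called 0. In 204 genes (0.967%) all 5 rLh fish lay above all 5 saline fish, and in 243 (1.15%) all lay below. The median absolute log2 fold change (rLh over saline) was 0.14, and 239 genes (1.13%) reached an absolute value of 1. In the 12 fish with 4 per group the differences were larger: edgeR called 135 genes (0.640%), 22 higher and 113 lower, DESeq2 called 2230 (10.6%), 39 of the 47 among them, and 2172 genes (10.3%) were higher and 2617 (12.4%) lower at an unadjusted p under 0.05. Since edgeR called no gene in the 10 fish, a gene given below with a log2 fold change ± SE and no p passed an unadjusted edgeR p under 0.05, with an adjusted p between 0.303 and 0.373. An adjusted p is printed where a gene did not pass, where DESeq2 called it, and for rLh against rFsh.

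The genes on the lower side were the more abundant ones. Genes higher after rLh at an unadjusted p under 0.05 had a median mean level of 15.1 CPM over the 10 fish, and genes lower after rLh one of 53.4 CPM, beside 18.3 CPM over all tested genes. In the highest of 5 level classes of equal size, above 65.7 CPM, 3.72% were higher and 16.2% lower. In the lowest class, below 2.82 CPM, 5.24% were higher and 2.96% lower. Among the genes that passed this p, the median absolute log2 fold change was 0.44 on the higher side and 0.32 on the lower. Both were picked by p and differed in level, and the part of level in these sizes was not tested. The number of genes on each side depended on scaling, filter and fish. With library totals alone in place of TMM factors, 1808 genes were higher and 995 lower, and the median of all genes moved to 0.05. With no filter on low counts 1469 were higher and 1447 lower. Without rLh 64 the counts were 931 and 791, without rLh 66 989 and 982, and without saline 66 959 and 917.

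**Figure D1:**
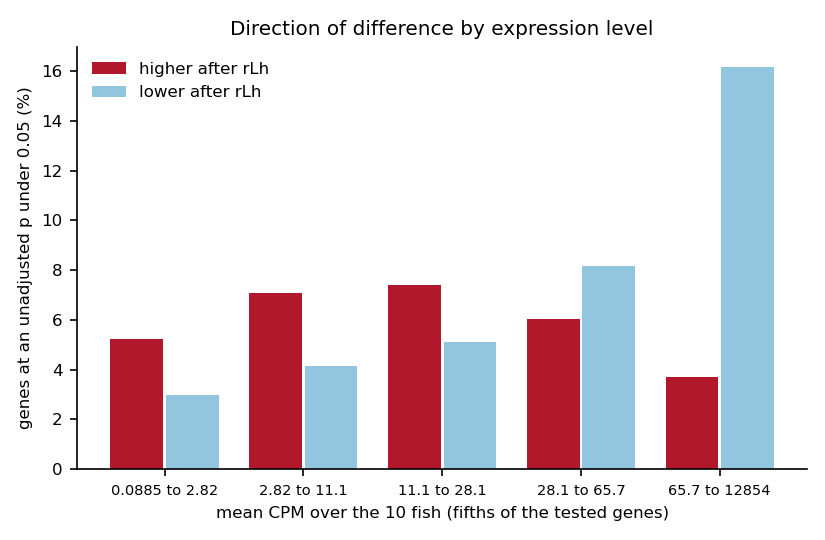
Share of tested genes higher (dark bars) and lower (light bars) after rLh at an unadjusted edgeR p under 0.05 (y axis, percent), by 5 classes of equal size of the mean level over the 10 fish (x axis, CPM). The share of lower genes grows with the level and reaches 16.2% in the top class, where 3.72% were higher.

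Genes of steroid production showed no shared direction. Of 17 steroid synthesis genes tested, 6 were higher, 1 at an unadjusted p under 0.05, and 2 were lower at that p, and the list's median log2 fold change was -0.06, beside 0.01 over all tested genes. Porb, matched to the P450 oxidoreductase that passes electrons to steroidogenic enzymes, had 284, 288, 311, 445 and 260.5 CPM in rLh fish 63, 64, 66, 67 and 68, against 216, 159.7, 176, 155 and 310.2 CPM in saline fish of those numbers (the order used throughout). Saline 68 was above 3 of the rLh fish, and the log2 fold change was 0.65 ± 0.23 (SE). Hsd20b2, which belongs to the hydroxysteroid dehydrogenases, had 46.5, 30.8, 41.4, 33.7 and 43.3 CPM in rLh fish, against 56.3, 52.0, 51.6, 49.1 and 46.5 CPM in saline fish, with every rLh fish below every saline fish although rLh 63 and saline 68 nearly met (-0.39 ± 0.15). Hsd17b12b, another of these enzymes, was lower by 0.28 ± 0.10, with rLh 63 above saline 68.

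The genes that mark Leydig cells had wide ranges among saline fish. Insl3, a Leydig cell peptide hormone, had 299, 361, 356, 523 and 275 CPM in rLh fish, against 231, 127, 114, 114 and 543 CPM in saline fish. Saline 68 held the highest level of all 10 fish and the other 4 saline fish lay below all rLh fish, so the log2 fold change of 0.68 ± 0.47 did not exceed the spread (edgeR adjusted p = 0.523). Lhcgr, the receptor of the hormone injected, had 92.4, 97.7, 77.5, 173 and 85.4 CPM in rLh fish, against 73.2, 57.9, 91.3, 36.1 and 112 CPM in saline fish (0.50 ± 0.30, edgeR adjusted p = 0.458). Hsd3b1, which makes the Δ4-steroids, had 763, 734, 714, 1176 and 624 CPM in rLh fish, against 683.9, 513, 517, 414 and 779 CPM in saline fish (0.46 ± 0.25, edgeR adjusted p = 0.428). In both genes rLh 67 was the highest fish and saline 67 the lowest.

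Star, which carries cholesterol into the mitochondrion, had 95.8, 78.2, 103, 139.7 and 101 CPM in rLh fish, against 93.5, 118, 59.3, 60.9 and 197 CPM in saline fish (-0.03 ± 0.32, edgeR adjusted p = 0.977), and its saline range enclosed the rLh range. The androgen receptor gene ar had 103, 85.2, 99.5, 152 and 90.3 CPM in rLh fish, against 86.4, 68.9, 77.8, 50.8 and 115 CPM in saline fish (0.41 ± 0.21, edgeR adjusted p = 0.406). The summed level of the 6 Leydig cell genes ranged between 1547 and 3134 CPM in rLh fish, against 862 to 2397 CPM in saline fish, and 4 of the 6 were higher (median 0.48), 0 at an unadjusted p under 0.05. Without saline 68 alone, and in the 12 fish, 4 of the 6 passed on the higher side (medians 0.65 and 0.71), while without rLh 67 0 passed and the median was 0.27. The cyp11 and cyp17 genes were not matched by symbol and were not analysed here. Among 15 gonadotropin and steroid receptor genes 0 passed that p in either direction (median 0.04). In the 12 fish, from which saline 68 was absent, the log2 fold change of insl3 was 1.39.

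Cholesterol genes leaned upward. Of 27 genes of cholesterol synthesis and uptake, 20 (74.1%) were higher, beside 51.5% of all tested genes. On the higher side 7.41% passed an unadjusted p under 0.05, near the 5.90% of all genes. Fdft1, squalene synthase, had 27.4, 37.3, 26.8, 31.2 and 23.0 CPM in rLh fish, against 22.2, 25.4, 22.2, 20.1 and 23.0 CPM in saline fish, with rLh 68 level with saline 68 and below saline 64 (0.37 ± 0.14). Insig1, which restrains sterol synthesis when sterols are plentiful, was higher by 0.38 ± 0.13 on the log2 scale, and hmgcs1, an early enzyme of the pathway, lower by 0.19 ± 0.08. Fdft1 was also higher in rLh than in rFsh fish (0.42 ± 0.14, edgeR adjusted p = 0.451).

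DNA replication and meiosis were the function lists with the largest share of members higher at an unadjusted p under 0.05. Of 56 DNA replication genes, 49 were higher and 15 (26.8%, beside 5.90% of all tested genes) passed an unadjusted p under 0.05, with 0 lower (median 0.20). Tyms, thymidylate synthase, had 16.0, 18.3, 17.0, 18.5 and 15.1 CPM in rLh fish, against 12.9, 15.1, 12.3, 10.97 and 15.7 CPM in saline fish (0.35 ± 0.11). Chaf1a, a subunit of the chromatin assembly factor that loads histones behind the fork, had 111, 132, 123, 121 and 101 CPM in rLh fish, against 95.2, 96.1, 75.7, 76.3 and 105 CPM in saline fish (0.39 ± 0.13). In both genes rLh 68 lay within the saline range. Rnaseh2a, which removes RNA from DNA, was higher by 0.39 ± 0.13. The count leaned on rLh 64: without that fish 5 of the 56 passed, without saline 67 it was 8, and without others up to 21. Over all tested genes the number higher was 1244 with every fish, 931 without rLh 64 and 844 without saline 67.

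The mean log2 CPM of the replication genes, set to 0 at the saline mean, showed the same spread. It was 0.12, 0.43, 0.21, 0.16 and 0.00 in the rLh fish, against 0.02, 0.08, -0.07, -0.13 and 0.09 in the saline fish, so that rLh 68 was inside the saline range and rLh 64 above all others. In the direct contrast with rFsh fish, 3 replication genes were higher and 4 lower at an unadjusted p under 0.05, beside 4.95% and 4.88% of all tested genes.

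Of 68 genes of the mitotic cell cycle, 61 were higher, 9 (13.2%, beside 5.90% of all tested genes) at an unadjusted p under 0.05, and 3 were lower at that p (median 0.13). Without rLh 64, or without saline 67, 4 of the 68 were higher at that p, beside 931 and 844 of all 21097 tested genes. Mad2l1, a spindle checkpoint protein, had 51.0, 59.96, 62.7, 65.4 and 54.4 CPM in rLh fish, against 49.4, 39.5, 44.8, 48.0 and 48.3 CPM in saline fish, without overlap (0.35 ± 0.12). E2f8, a repressor of cell cycle genes, had 83.1, 92.9, 108, 101 and 97.5 CPM in rLh fish, against 65.0, 76.2, 44.6, 42.9 and 81.8 CPM in saline fish, again without overlap (0.64 ± 0.19), with the lowest levels in saline 66 and 67. Knl1, a kinetochore scaffold, was higher by 0.36 ± 0.10. On the lower side stood other checkpoint and kinase genes: mad1l1 had 65.4, 52.4, 57.1, 50.2 and 62.1 CPM in rLh fish, against 68.8, 67.6, 74.7, 70.6 and 69.4 CPM in saline fish, without overlap (-0.29 ± 0.12), and bub1ba and wee2, a kinase known for holding oocytes in meiosis, were lower by 0.15 ± 0.06 and 0.33 ± 0.12. Mad2l1 was lower in rLh than in rFsh fish (-0.27 ± 0.11, edgeR adjusted p = 0.494). At an unadjusted p under 0.05, 11 of the 68 mitotic genes were lower than in rFsh fish and 0 higher, beside 4.88% and 4.95% of all tested genes.

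Of 32 meiosis genes, 27 were higher, 8 of them (25.0%) at an unadjusted p under 0.05, and 1 was lower at that p (median 0.11). Mnd1, a partner of the recombinases in strand exchange, had 34.3, 59.5, 45.6, 36.5 and 26.1 CPM in rLh fish, against 26.4, 30.5, 25.7, 24.6 and 33.0 CPM in saline fish (0.53 ± 0.17). The germline cohesin gene smc1b had 194, 307, 198, 179 and 157 CPM in rLh fish, against 181, 152, 118, 148 and 171 CPM in saline fish (0.43 ± 0.17), and the helicase gene brip1 was higher by 0.30 ± 0.13. In mnd1 and smc1b rLh 64 was the highest fish and rLh 68 lay within the saline range. Without rLh 64, 1 of the 32 genes remained at that p on the higher side, beside 931 of all 21097 tested genes. Brdt, a bromodomain protein of spermatocytes and spermatids, went the other way, with 376, 257, 315, 284 and 383 CPM in rLh fish, against 460.0, 416, 437, 479.9 and 365 CPM in saline fish (-0.42 ± 0.15). Against rFsh fish 7 meiosis genes were lower and 0 higher in rLh fish at an unadjusted p under 0.05 (median -0.13). Over all tested genes 4.88% were lower and 4.95% higher in that contrast.

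**Figure D2:**
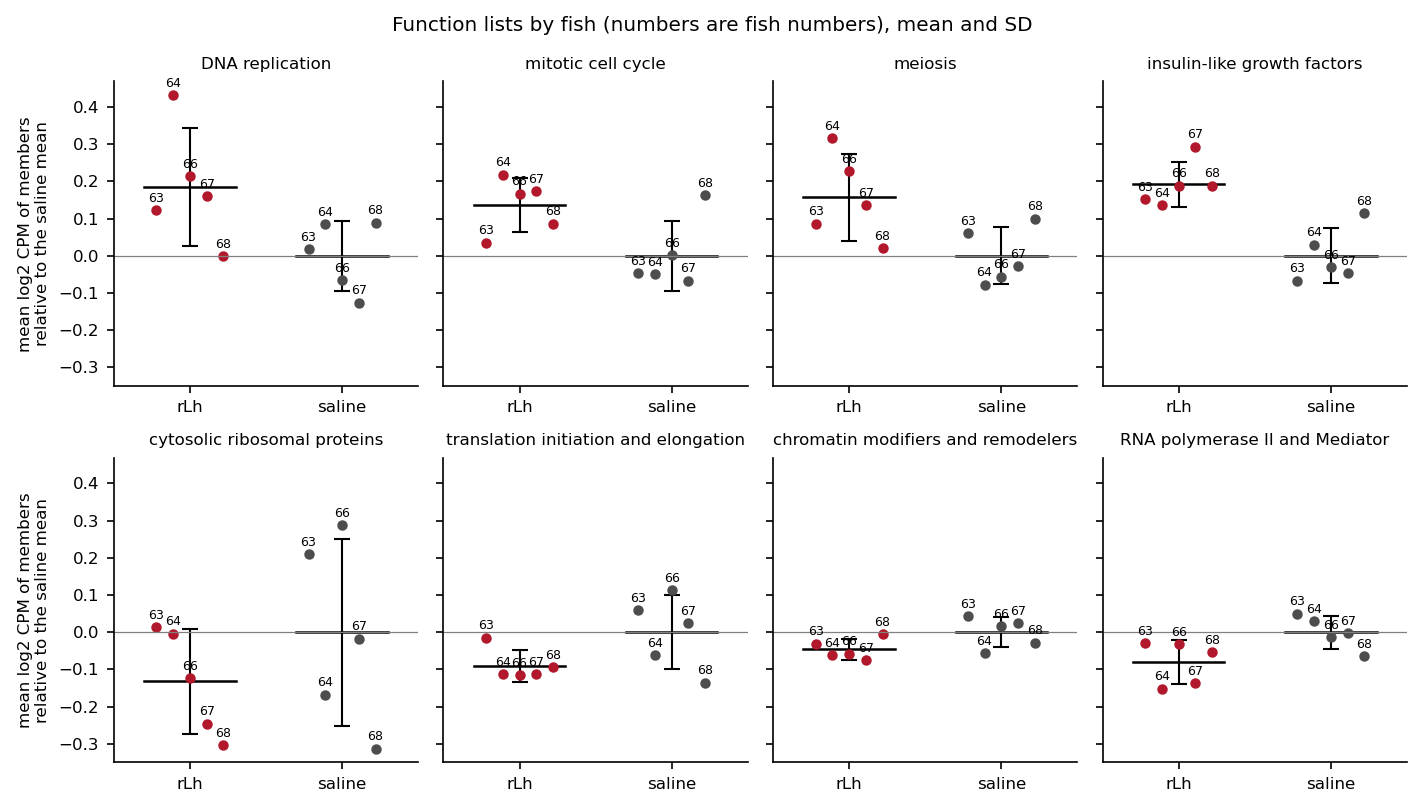
Mean log2 CPM of the members of 8 function lists in each fish, set to 0 at the saline mean (y axis), for rLh fish (left of each panel) and saline fish (right), with fish numbers, the mean (line) and SD (bar). In DNA replication rLh 64 stands at 0.43 and rLh 68 at 0.00, and in cytosolic ribosomal proteins saline 63 and 66 stand above every rLh fish.

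Spermatogonial genes followed the same side with few single members: 22 of 28 were higher, 2 at an unadjusted p under 0.05 and 0 lower (median 0.12). Piwil2, which silences transposons with small RNAs in early germ cells, had 219, 261, 245, 203 and 163 CPM in rLh fish, against 221, 167, 155, 154 and 187 CPM in saline fish (0.30 ± 0.13). Saline 63 was above 3 of the rLh fish. Plk4, the kinase that starts centriole duplication, was higher by 0.31 ± 0.11, with rLh 68 the highest fish.

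Genes of the flagellum were higher more often than lower: 73 of 117 cilium and sperm flagellum genes (62.4%) were higher, beside 51.5% of all tested genes. At an unadjusted p under 0.05, 11 (9.40%) were higher and 2 (1.71%) lower, beside 5.90% and 7.31% of all tested genes. Spag6, a protein of the central pair of the axoneme, had 19.6, 18.3, 30.5, 30.2 and 25.1 CPM in rLh fish, against 13.1, 12.003, 8.21, 8.70 and 20.9 CPM in saline fish (0.98 ± 0.29). Theg, a spermatid gene, had 81.0, 69.5, 109, 117 and 101 CPM in rLh fish, against 56.8, 56.7, 36.7, 35.5 and 78.03 CPM in saline fish (0.86 ± 0.27). For both, saline 66 and 67 were the lowest of the 10 fish and saline 68 lay among the rLh fish. Dnah5, an outer arm dynein heavy chain, had 27.5, 48.9, 45.9, 28.2 and 24.9 CPM in rLh fish, against 26.3, 24.8, 20.5, 23.1 and 23.5 CPM in saline fish (0.57 ± 0.18), and dnal1, a dynein light chain, was higher by 0.37 ± 0.12. Stk36, a kinase needed in mammals for motile cilia, was lower by 0.53 ± 0.21 with overlapping groups.

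Spermatid and sperm head genes split evenly, with 3 of 18 at an unadjusted p under 0.05 on each side. Spata13 had 35.6, 40.6, 38.7, 37.8 and 34.03 CPM in rLh fish, against 31.9, 30.6, 31.9, 30.6 and 30.8 CPM in saline fish, without overlap (0.26 ± 0.08). Dcst1, a sperm membrane protein required for fertilisation, had 53.6, 38.9, 49.5, 50.02 and 64.9 CPM in rLh fish, against 58.9, 78.1, 53.5, 66.6 and 66.6 CPM in saline fish (-0.33 ± 0.14). The 3 tested alpha-tubulin loci with the human match TUBA1C, a gene the study names, were all higher, 2 of them at an unadjusted p under 0.05. LOC122761642 had 78.4, 68.1, 114, 115 and 101 CPM in rLh fish, against 54.4, 54.4, 31.1, 36.9 and 78.6 CPM in saline fish (0.90 ± 0.28), lowest in saline 66 and 67 as spag6 was, and LOC122761643 (0.85 ± 0.32) passed as well, while LOC122769531 (0.68 ± 0.32, edgeR adjusted p = 0.381) did not. Tubulin copies are alike in sequence, and the split of reads between them is uncertain.

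Protein synthesis genes lay on the lower side, by small amounts. Of 73 cytosolic ribosomal protein genes, 3 were higher and 8 (10.96%, beside 7.31% of all tested genes) were lower at an unadjusted p under 0.05 (median -0.13). That share did not exceed the 16.2% lower in the highest level class, above 65.7 CPM. Rpl30, of the large subunit, had 276, 247, 250.4, 223 and 225 CPM in rLh fish, against 377, 256, 416, 331 and 223 CPM in saline fish (-0.39 ± 0.14). Rps23, of the small subunit, had 438, 415, 397, 338 and 356 CPM in rLh fish, against 505, 414, 577, 474 and 360.0 CPM in saline fish (-0.26 ± 0.11). In both, saline 64 and 68 were within the rLh range and saline 63, 66 and 67 above it. The count rested on single fish: without saline 66, 0 ribosomal protein genes passed, and without saline 68, 30 did. Over all tested genes the number lower was 917 and 2118 without those fish, and 1543 with every fish. Compared directly with rFsh fish, 42 of the 73 were higher in rLh fish at an unadjusted p under 0.05 and 0 lower (median 0.24). This was the largest share of any list in that contrast, beside 4.95% higher and 4.88% lower over all tested genes.

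Of 56 genes of translation initiation and elongation, 14 were higher and 14 (25.0%) were lower at an unadjusted p under 0.05, while 1 was higher at that p (median -0.08). The share lower was 7.31% over all tested genes and 16.2% in the highest level class. Eif2ak3, the kinase PERK that slows translation under stress of the endoplasmic reticulum, had 459, 378, 388, 342 and 438 CPM in rLh fish, against 527, 498, 550.4, 658 and 371 CPM in saline fish (-0.38 ± 0.14). Eif4ba, a helper of the cap-binding helicase, had 319, 269, 284, 267 and 306 CPM in rLh fish, against 363, 322, 363, 325 and 297 CPM in saline fish (-0.21 ± 0.08). Saline 68 lay within the rLh range in both genes. Eif2ak2, the kinase PKR that is triggered by double-stranded RNA, was lower by 0.25 ± 0.09, and the helicase eif4a2 was the member that was higher (0.18 ± 0.07). As the list pools factors that carry out translation with eif2ak3, which slows it, its count gives no direction for protein synthesis. The number lower ran from 4 to 22 when fish were left out in turn, and that of all tested genes from 791 to 2118.

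Ribosome biogenesis (17 of 77 higher, 0 and 7 at an unadjusted p under 0.05 on the higher and lower side, median -0.07) and mitochondrial ribosomal proteins (17 of 74 higher, 0 and 4, median -0.05) leaned the same way. Their shares lower at that p were 9.09% and 5.41%, beside 7.31% of all tested genes and 16.2% in the highest level class. Nob1, which cleaves the precursor of the small subunit RNA, had 60.6, 49.8, 48.9, 54.9 and 56.7 CPM in rLh fish, against 70.9, 67.1, 79.2, 71.9 and 50.1 CPM in saline fish (-0.33 ± 0.12). Summed reads of the 105 ribosomal RNA loci with any count were fewer after rLh, at 125.6, 422.6, 84.6, 104.0 and 413.1 per 1000000 counts in rLh fish, against 611.9, 536.7, 1153, 832.0 and 897.3 in saline fish, with no overlap (exact two-sided permutation test, p = 0.00794). SMARTseq2 primes on polyadenylated RNA, so these counts do not measure the ribosomal RNA content of the tissue, and they differed between the groups as depth did. Their part in the ribosomal protein values was not tested.

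Transcription and chromatin genes were lower more often than higher. Of 130 chromatin modifiers and remodelers, 44 were higher, with 6 higher and 22 (16.9%) lower at an unadjusted p under 0.05 and a median of -0.06. Over all tested genes 7.31% were lower, and in the highest level class 16.2%. The number lower ran from 9 (without rLh 64 or saline 66) to 33 (without saline 68) when fish were left out in turn. The number over all tested genes moved as well, from 1543 with every fish to 791 without rLh 64, 917 without saline 66 and 2118 without saline 68. Kdm7aa, a histone demethylase, had 262, 211, 240.0, 238 and 259.5 CPM in rLh fish, against 304, 319, 289, 315 and 284 CPM in saline fish, without overlap (-0.32 ± 0.09). Arid1b, a subunit of the SWI/SNF remodeler, had 160.1, 131, 146, 148 and 181 CPM in rLh fish, against 204, 195, 202, 189.6 and 178 CPM in saline fish (-0.34 ± 0.09), with rLh 68 above saline 68. Kdm6a, a demethylase of H3K27, was lower by 0.31 ± 0.10. On the higher side, sirt3, a mitochondrial deacetylase, had 26.9, 29.0, 30.0, 36.5 and 26.5 CPM in rLh fish, against 23.7, 17.7, 16.3, 13.9 and 26.4 CPM in saline fish, without overlap (0.60 ± 0.18).

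Of 63 genes of RNA polymerase II and Mediator, 17 were higher, 2 at an unadjusted p under 0.05, and 11 (17.5%) were lower at that p (median -0.08), 5 without rLh 64. Taf12, a subunit of TFIID and SAGA, had 111, 79.3, 103, 90.3 and 106 CPM in rLh fish, against 134, 123, 139, 138 and 111 CPM in saline fish (-0.40 ± 0.14), and only rLh 63 reached the lowest saline level, that of saline 68. Med13a, of the Mediator kinase module, was lower by 0.34 ± 0.12. Taf9, which shares both complexes with taf12, went the other way, with 41.1, 51.6, 45.8, 45.5 and 40.5 CPM in rLh fish, against 38.1, 31.6, 35.6, 36.7 and 39.4 CPM in saline fish, without overlap (0.31 ± 0.08). Among 78 spliceosome genes 1 was higher and 10 (12.8%) lower at an unadjusted p under 0.05 (median -0.07). The number lower was 5 without rLh 64, 66, 67 or saline 67. Over all tested genes it was 791, 982, 880 and 1145 without those fish in turn, and 1543 with every fish. Sf1, the branch point binding protein, was lower by 0.23 ± 0.08 and hnrnpm by 0.20 ± 0.07. For both lists, the share lower was 7.31% over all tested genes and 16.2% in the highest level class.

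Chaperone and heat shock genes counted 2 (3.28%) higher and 7 (11.5%) lower of 61 at an unadjusted p under 0.05 (median -0.05). All tested genes gave 5.90% and 7.31%, and 16.2% were lower in the highest level class. Dnajc3a, a co-chaperone of the endoplasmic reticulum, had 111, 84.3, 96.5, 88.1 and 110.1 CPM in rLh fish, against 131, 127, 141, 149 and 99.7 CPM in saline fish (-0.40 ± 0.13), and hsf1, the heat shock factor, was lower by 0.18 ± 0.06. Proteasome genes leaned upward, with 27 of 35 (77.1%, beside 51.5% of all tested genes) higher and 1 on each side at that p (median 0.05). Oxidative phosphorylation (15 of 50 higher, 0 and 2 at that p, median -0.04) and glycolysis (16 of 34 higher, 1 and 5, median -0.01) were near 0. Scaled by library totals alone, the medians of the oxidative phosphorylation and chaperone lists changed sign.

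**Figure D3:**
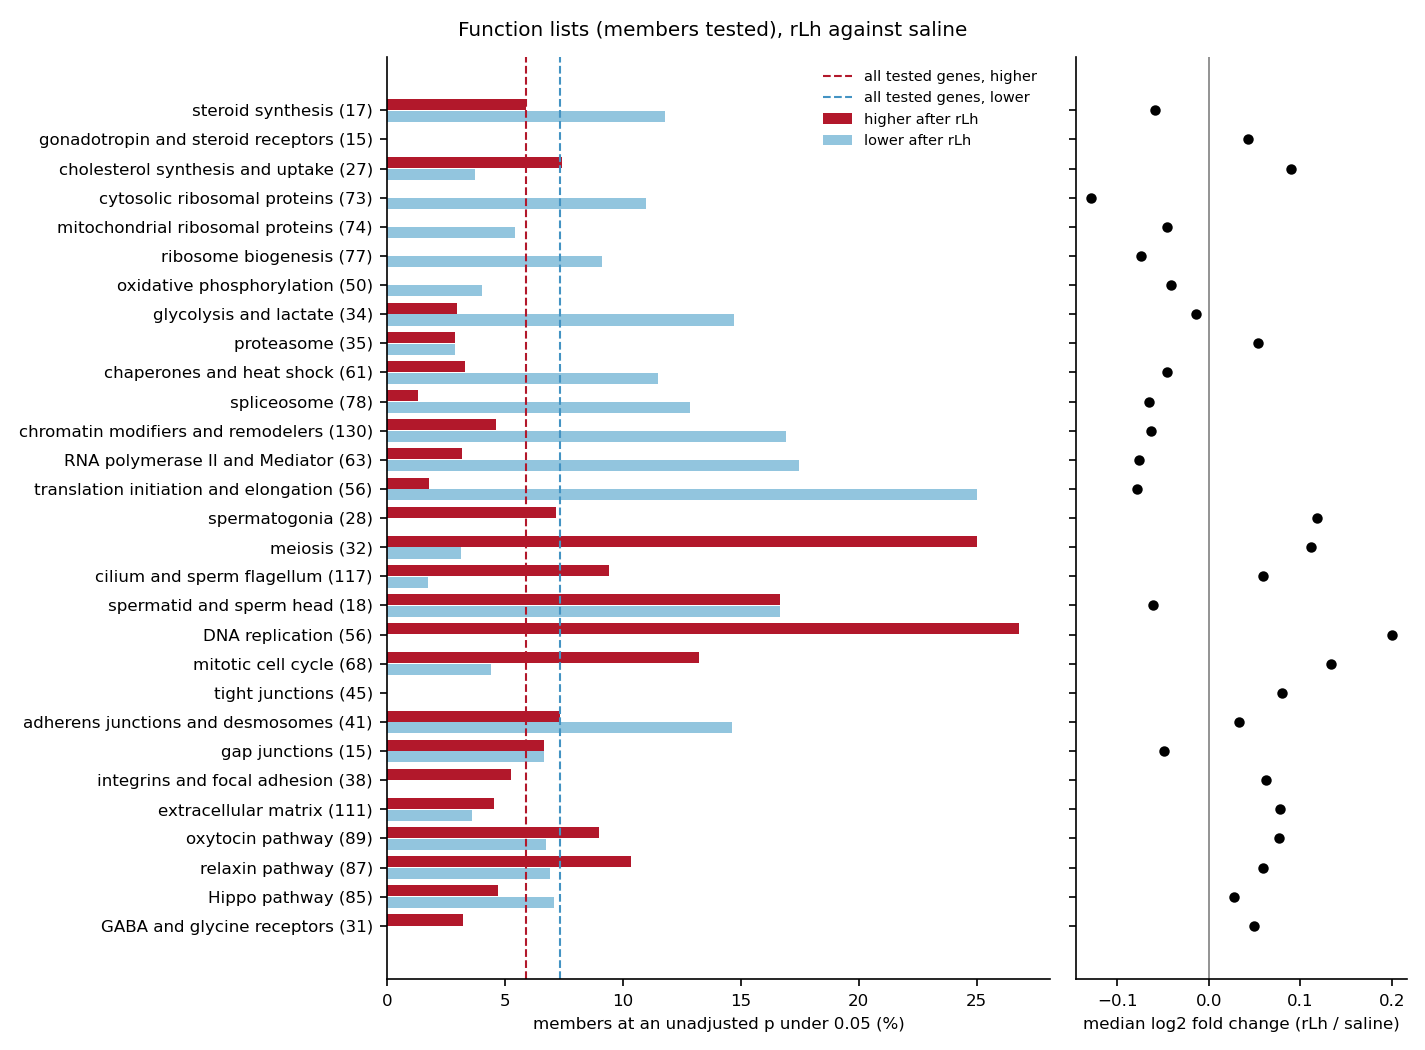
Members of the function, germ cell, junction and study pathway lists (number tested in brackets) at an unadjusted edgeR p under 0.05, as a percentage of the members tested (left panel, dark bars higher and light bars lower after rLh, dashed lines the 5.90% and 7.31% of all tested genes), and the median log2 fold change of each list (right panel, rLh over saline). DNA replication has the highest share on the higher side (26.8%) and translation initiation and elongation the highest on the lower side (25.0%).

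Of the energy metabolism genes DESeq2 called sdhb and a subunit of cytochrome oxidase, both lower. Sdhb encodes the iron-sulphur subunit of succinate dehydrogenase and had 46.1, 40.8, 39.9, 38.6 and 41.3 CPM in rLh fish, against 50.8, 48.6, 47.7, 47.1 and 49.3 CPM in saline fish, without overlap. The log2 fold change was -0.24 ± 0.06 (DESeq2 adjusted p = 0.0164), 1.18-fold lower with a narrow spread in both groups. LOC122758984, matched to the cytochrome oxidase subunit COX6B1, fell by 0.57 ± 0.13 (DESeq2 adjusted p = 0.0349), at 51.6, 36.2, 47.6, 39.1 and 49.1 CPM in rLh fish, against 65.4, 60.7, 74.9, 78.9 and 51.2 CPM in saline fish, with rLh 63 just above saline 68.

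Junction genes lay in both directions, and single members stood out. Of 41 adherens junction and desmosome genes 3 (7.32%) were higher and 6 (14.6%) lower at an unadjusted p under 0.05 (median 0.03). Over all tested genes the shares were 5.90% and 7.31%, and in the highest level class 16.2% were lower. Cdh11 encodes cadherin 11, a calcium-dependent adhesion molecule of mesenchymal cells, and lies on linkage group LG15 at 17941873 to 18012861 (build IFAPA_SoseM_1, as all positions here). It had 42.6, 38.6, 41.0, 35.5 and 44.6 CPM in rLh fish, against 48.0, 55.0, 56.2, 50.7 and 55.7 CPM in saline fish, without overlap. The log2 fold change was -0.39 ± 0.08 (DESeq2 adjusted p = 0.00363), and the call held with any single fish left out (largest adjusted p 0.0419). Set against rFsh fish, the same rLh fish were lower in cdh11 by 0.30 ± 0.08 (edgeR adjusted p = 0.403).

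Nectin genes differed in sign. Nectin3b, a nectin of the kind that links Sertoli cells to spermatids in mammals, lies on LG13 at 17620939 to 17641844 and had 5.87, 5.81, 8.32, 7.19 and 6.40 CPM in rLh fish, against 4.31, 3.58, 2.67, 2.60 and 4.63 CPM in saline fish, without overlap (0.92 ± 0.20, DESeq2 adjusted p = 0.0102). Its copy nectin3a had 213, 165, 210.0, 176 and 202 CPM in rLh fish, against 235, 239.8, 228, 229 and 211 CPM in saline fish (-0.24 ± 0.08). Ptprk, a receptor phosphatase of cell contacts, was lower by 0.41 ± 0.13, jupa, plakoglobin, by 0.24 ± 0.11 and ctnna2, an alpha-catenin, higher by 0.27 ± 0.12. Whether the read split between the nectin3 copies is exact was not tested.

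Of 45 tight junction genes listed by symbol 30 were higher and 0 passed an unadjusted p under 0.05 on either side (median 0.08). The 2 LOC loci matched to PARD3, a polarity protein that places tight junctions, were lower without overlap. LOC122783155 (LG16, 19144817 to 19203028) had 19.1, 14.9, 22.1, 19.1 and 21.1 CPM in rLh fish, against 27.1, 26.1, 30.9, 37.8 and 27.0 CPM in saline fish (-0.63 ± 0.15, DESeq2 adjusted p = 0.0349). LOC122781630 had 83.4, 64.1, 77.9, 73.9 and 78.4 CPM in rLh fish, against 101, 88.5, 128, 137 and 84.7 CPM in saline fish (-0.52 ± 0.14). The genes annotated as pard3aa (-0.20 ± 0.13, edgeR adjusted p = 0.505) and pard3bb (0.08 ± 0.10, edgeR adjusted p = 0.736) lay closer to 0. Scrib, another polarity protein, had 184, 162, 171, 161 and 211 CPM in rLh fish, against 194, 218, 220.1, 209.6 and 196 CPM in saline fish (-0.23 ± 0.09), and was lower in rLh than in rFsh fish (-0.20 ± 0.09, edgeR adjusted p = 0.499).

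Of the 15 gap junction genes listed by symbol, which leave out LOC loci, 1 passed an unadjusted p under 0.05 on each side (median -0.05, and 0.12 in the 12 fish), gja1b lower (-0.68 ± 0.27) and gja9a higher (0.56 ± 0.23). Outside that list, the 3 LOC loci with the human match GJA3, a connexin, were lower at that p. LOC122783777 (LG17, 18256340 to 18259096) had 32.2, 20.1, 28.9, 22.1 and 28.9 CPM in rLh fish, against 35.7, 40.6, 45.0, 58.1 and 36.5 CPM in saline fish, without overlap (-0.71 ± 0.22). LOC122763068, on an unplaced scaffold, had 13.5, 9.04, 10.0, 8.90 and 11.3 CPM in rLh fish, against 20.6, 14.96, 24.6, 24.8 and 10.3 CPM in saline fish (-0.86 ± 0.25). LOC122784258, the neighbour of the first, was lower by 0.66 ± 0.30, with saline 64 and 68 inside the rLh range. Reads shared between these copies leave their separate values uncertain, and the gene annotated as gja3 itself was under 1 CPM in every rLh and saline fish.

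Adhesion to the matrix showed few members past the threshold: of the listed genes, which leave out LOC loci, 2 of 38 integrin and focal adhesion genes were higher and 0 lower at an unadjusted p under 0.05, and 5 of 111 extracellular matrix genes were higher and 4 lower, with medians of 0.06 and 0.08. Tln2b, a talin that links integrins to actin, had 53.9, 60.5, 55.7, 56.6 and 55.0 CPM in rLh fish, against 47.5, 43.2, 49.8, 43.2 and 45.3 CPM in saline fish, without overlap (0.30 ± 0.11). Timp2a, an inhibitor of matrix metalloproteinases, had 257, 258, 239, 331 and 237 CPM in rLh fish, against 207, 189, 248, 202 and 219.7 CPM in saline fish (0.31 ± 0.10). Col28a1b, a collagen, was lower by 1.44 ± 0.49, with 15.02, 12.4, 20.8, 12.7 and 20.9 CPM in rLh fish, against 15.4, 70.7, 28.6, 81.3 and 26.5 CPM in saline fish, the difference coming mainly from saline 64 and 67. Outside the list, LOC122774481, the ITGB1 match among the genes the study names, was lower by 0.22 ± 0.08.

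Other junction genes that the study names were divided too. LOC122765382, matched to TMEM47, a membrane protein of cell junctions, had 4.96, 7.68, 7.35, 7.14 and 4.91 CPM in rLh fish, against 3.70, 5.04, 3.81, 4.66 and 4.24 CPM in saline fish (0.59 ± 0.19), while the gene annotated as tmem47 did not pass (0.20 ± 0.17, edgeR adjusted p = 0.608). Tmem117 (0.75 ± 0.27) and tenm2a, a teneurin (0.63 ± 0.26), were higher at an unadjusted p under 0.05. Of the loci of beta-catenin, which ties cadherins to actin and carries Wnt signals, LOC122786353 was lower by 0.16 ± 0.07, and ctnnb1 did not pass (-0.01 ± 0.06, edgeR adjusted p = 0.935). Tjap1 (-0.15 ± 0.08, edgeR adjusted p = 0.431), the CLDN4 match LOC122779864 (-0.14 ± 0.14, edgeR adjusted p = 0.648), the endosomal GTPase gene rab5c (-0.08 ± 0.09, edgeR adjusted p = 0.681) and the TUBB match LOC122786158 (0.36 ± 0.22, edgeR adjusted p = 0.468) did not pass either. All of these loci overlapped between the groups.

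The oxytocin, relaxin and Hippo pathways were the signalling systems the study followed. Many of its named genes came from sequencing of fish also used here, so their counts are not independent evidence of a direction. Others, among them the relaxin ligands and receptors, the study reported from RT-qPCR on other testis samples. It also drew on in situ hybridization, immunostaining and testis explants, which RNA counts here do not address. Oxytocin signals through Gq, phospholipase C and calcium. Of 89 oxytocin pathway genes 62 were higher, 8 (8.99%) at an unadjusted p under 0.05, and 6 (6.74%) were lower at that p (median 0.08), near the shares of all genes. Plcb3, a phospholipase C, was higher here, whereas the study reports it as lower after both hormones, by sequencing and by RT-qPCR. It had 33.7, 40.7, 33.2, 35.5 and 33.7 CPM in rLh fish, against 27.8, 27.2, 31.4, 29.8 and 30.1 CPM in saline fish, without overlap (0.27 ± 0.11). Itpr3, the calcium release channel gated by its product, had 12.6, 16.8, 15.5, 14.3 and 14.2 CPM in rLh fish, against 12.03, 11.5, 9.68, 12.04 and 12.6 CPM in saline fish, without overlap although rLh 63 and saline 68 nearly met (0.35 ± 0.12). The oxytocin receptor gene oxtra was low, at 0.895, 1.24, 2.19, 1.89 and 1.25 CPM in rLh fish, against 0.890, 0.899, 0.656, 0.350 and 1.46 CPM in saline fish (0.83 ± 0.47, edgeR adjusted p = 0.440).

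Adenylyl cyclases, which make cAMP and serve both pathways, split. Adcy3a was higher by 0.32 ± 0.13, while adcy7 had 290.5, 261, 259, 258 and 317 CPM in rLh fish, against 334, 309, 359, 339 and 296 CPM in saline fish (-0.24 ± 0.09) and was lower than in rFsh fish as well (-0.30 ± 0.09, edgeR adjusted p = 0.414). Adcy2b was lower by 0.30 ± 0.13. The other adenylyl cyclase loci the study names, LOC122765835 (-0.44 ± 0.27, edgeR adjusted p = 0.486), adcy2a (0.46 ± 0.31, edgeR adjusted p = 0.516) and LOC122783988 (0.33 ± 0.20, edgeR adjusted p = 0.477), did not pass. LOC122768120, matched to the inhibitory G protein subunit GNAI2, had 55.7, 66.998, 46.7, 88.4 and 52.4 CPM in rLh fish, against 44.7, 42.7, 44.1, 42.1 and 58.2 CPM in saline fish (0.42 ± 0.15), with overlapping groups. Cacnb1, a calcium channel subunit (0.59 ± 0.60, edgeR adjusted p = 0.678), ppp3ca, the catalytic subunit of calcineurin (0.41 ± 0.23, edgeR adjusted p = 0.430), calm2a, a calmodulin (0.02 ± 0.12, edgeR adjusted p = 0.942) and LOC122777364, matched to the atypical protein kinase C PRKCZ (0.39 ± 0.22, edgeR adjusted p = 0.441), did not pass. Jun, a subunit of AP-1, had 19.6, 17.1, 16.0, 17.2 and 21.2 CPM in rLh fish, against 25.4, 19.9, 38.5, 31.1 and 12.7 CPM in saline fish (-0.49 ± 0.23). Saline 68 had the lowest jun level of all, and without saline 66 the gene no longer passed. Egfra, the EGF receptor, was higher by 0.31 ± 0.12 and prkcbb, a protein kinase C, lower by 0.43 ± 0.16.

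Of 87 relaxin pathway genes 55 were higher, 9 (10.3%) at an unadjusted p under 0.05, and 6 (6.90%) were lower at that p (median 0.06). The ligand rln3a had 76.1, 40.3, 131, 69.7 and 76.5 CPM in rLh fish, against 69.8, 53.1, 78.2, 39.5 and 59.7 CPM in saline fish (0.39 ± 0.37, edgeR adjusted p = 0.650), and the ligand rln1 17.2, 13.8, 14.996, 13.3 and 16.4 CPM in rLh fish, against 17.5, 21.8, 21.97, 24.2 and 9.00 CPM in saline fish (-0.32 ± 0.27, edgeR adjusted p = 0.598). Rxfp1, the relaxin receptor, spread over a wide range within each group, at 107, 92.5, 37.2, 83.5 and 21.1 CPM in rLh fish, against 151, 13.9, 153, 10.0 and 83.2 CPM in saline fish, and the SE exceeded the difference (-0.28 ± 1.001, edgeR adjusted p = 0.921). Rxfp2a, the receptor of Insl3 in mammals, lay near 1 CPM in every fish (0.18 ± 0.24, edgeR adjusted p = 0.751). Both loci of the relaxin family receptor RXFP3, LOC122786144 (-0.26 ± 0.22, edgeR adjusted p = 0.601) and rxfp3 (-0.28 ± 0.35, edgeR adjusted p = 0.740), did not pass. Downstream, gng10, a G protein gamma subunit, had 36.2, 25.1, 34.9, 30.9 and 36.1 CPM in rLh fish, against 40.2, 44.4, 38.6, 46.0 and 45.8 CPM in saline fish, without overlap (-0.40 ± 0.15), and map2k4b, a kinase above JNK, was higher by 0.29 ± 0.11. LOC122765116, the CREB1 match, had 5.65, 7.05, 12.3, 9.69 and 9.84 CPM in rLh fish, against 3.52, 5.25, 2.52, 2.95 and 8.85 CPM in saline fish (0.97 ± 0.36), lowest in saline 66 and 67.

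The Hippo kinases restrain Yap, a transcriptional coactivator that promotes growth. Of 85 Hippo pathway genes 4 (4.71%) were higher and 6 (7.06%) lower at an unadjusted p under 0.05 (median 0.03), near the shares of all genes. Frmd6, a FERM protein upstream of the kinases, rose by DESeq2, with 17.4, 20.1, 20.2, 22.2 and 17.5 CPM in rLh fish, against 13.8, 14.7, 12.4, 15.6 and 15.4 CPM in saline fish, without overlap (0.44 ± 0.10, adjusted p = 0.0150). Lats1, the kinase that phosphorylates Yap, had 52.8, 51.1, 48.4, 47.8 and 50.2 CPM in rLh fish, against 57.3, 55.6, 54.6, 54.1 and 52.1 CPM in saline fish, a small difference (-0.13 ± 0.05). Rassf1, an activator of the kinases, was lower by 0.36 ± 0.13, axin2, also a target of Wnt, by 0.46 ± 0.18 and tcf7l2, a Wnt transcription factor, higher by 0.32 ± 0.11. Lef1 (-0.46 ± 0.22, edgeR adjusted p = 0.380) and snai2 (0.62 ± 0.31, edgeR adjusted p = 0.403) did not pass. Of 41 genes taken from those the study names in these pathways and in junctions, 37 matched 52 tested loci. Of these loci 11 were higher and 12 lower at an unadjusted p under 0.05, and DESeq2 called 1. Other genes the study names, among them yap1, jam3 and rhoa, were not among the 41. Over all tested genes the shares were 5.90% and 7.31%, which the named genes exceeded on both sides. Many of them were named for differences in fish also used here.

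Among other signalling lists, insulin-like growth factor genes were the only list of the 49 whose per-fish mean did not overlap between the groups. The mean log2 CPM of its 18 members, set to 0 at the saline mean, was 0.15, 0.14, 0.19, 0.29 and 0.19 in the rLh fish, against -0.07, 0.03, -0.03, -0.05 and 0.11 in the saline fish. The gap was narrow, between rLh 64 at 0.136 and saline 68 at 0.114, and the list was singled out of 49 after the values were seen. Of the 18, 14 were higher and 2 (11.1%, beside 5.90% of all tested genes) passed an unadjusted p under 0.05, with 0 lower (median 0.12). Igfbp5a, a binding protein that holds the factors in the matrix, had 73.7, 74.2, 87.4, 145 and 78.1 CPM in rLh fish, against 43.3, 45.1, 46.3, 38.9 and 86.9 CPM in saline fish (0.82 ± 0.26). Igf2bp1, an mRNA-binding protein, had 63.05, 57.6, 75.9, 84.7 and 75.4 CPM in rLh fish, against 48.8, 45.0, 37.9, 37.98 and 68.7 CPM in saline fish (0.58 ± 0.18). Saline 68 lay within the rLh range in both.

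Immediate early genes stood at 3 of 30 (10%) on each side at an unadjusted p under 0.05 (median 0.02), beside 5.90% higher and 7.31% lower over all tested genes. Dusp5, a phosphatase that switches off ERK, had 24.3, 31.1, 35.9, 42.7 and 31.7 CPM in rLh fish, against 10.9, 12.96, 12.4, 15.1 and 37.2 CPM in saline fish (0.91 ± 0.37), with 4 saline fish below all rLh fish and saline 68 above all but 1. Nr4a2a, an orphan nuclear receptor, was higher by 0.91 ± 0.29 at about 1 CPM, and mycb, a Myc gene, lower by 0.43 ± 0.17. cAMP signalling genes counted 5 (6.67%) higher and 4 (5.33%) lower of 75 (median 0.04), near the shares of all genes. Rapgef4a, a guanine exchange factor opened directly by cAMP, had 44.9, 50.8, 53.4, 63.3 and 41.1 CPM in rLh fish, against 36.8, 43.3, 34.9, 38.6 and 42.4 CPM in saline fish (0.37 ± 0.12). Atf1, a relative of Creb, was lower by 0.25 ± 0.10.

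Wnt genes counted 2 (3.45%) higher and 5 (8.62%) lower of 58 (median 0.05), beside 5.90% and 7.31% of all tested genes. Wnt4b, a ligand, was low but separated, at 0.348, 0.344, 0.501, 0.646 and 0.567 CPM in rLh fish, against 0.754, 0.667, 0.789, 0.727 and 1.13 CPM in saline fish (-0.76 ± 0.26), and was lower than in rFsh fish (-0.90 ± 0.27, edgeR adjusted p = 0.414). Daam2, a formin of the Wnt polarity branch, had 501, 327, 419, 347 and 495 CPM in rLh fish, against 635, 602, 703, 868 and 433 CPM in saline fish (-0.63 ± 0.22). In Notch and Hedgehog signalling, 2 of 28 genes lay on each side (median 0.00), with gli3, a Hedgehog transcription factor, at 16.8, 21.0, 23.7, 25.5 and 18.8 CPM in rLh fish, against 11.3, 13.6, 10.8, 9.92 and 17.9 CPM in saline fish (0.74 ± 0.23). TGF-beta, activin and BMP genes counted 0 higher and 1 lower of 44 (median 0.04), the lower one being smad9 (-0.30 ± 0.11). Amh, the Sertoli cell hormone of that family, had 185, 175, 143, 168 and 205 CPM in rLh fish, against 184, 139, 216, 197 and 162 CPM in saline fish (-0.04 ± 0.13, edgeR adjusted p = 0.913), and was higher in rLh than in rFsh fish (0.44 ± 0.13, edgeR adjusted p = 0.408).

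GABA and glycine receptor genes counted 1 (3.23%) higher and 0 lower of 31 (median 0.05), beside 5.90% and 7.31% of all tested genes. The GABA-B receptor gene gabbr1b had 25.2, 26.4, 39.4, 33.9 and 29.5 CPM in rLh fish, against 18.4, 19.4, 13.2, 15.8 and 26.2 CPM in saline fish (0.74 ± 0.22). Ion channel genes counted 5 (3.88%) on each side of 129 (median 0.04), below the shares of all genes. Retinoic acid genes counted 2 (11.8%) higher and 1 (5.88%) lower of 17 (median 0.05). Cacng7b, an auxiliary calcium channel subunit, had 23.0, 22.2, 28.7, 43.1 and 27.7 CPM in rLh fish, against 15.8, 14.9, 12.2, 13.3 and 26.7 CPM in saline fish (0.81 ± 0.24). Apoptosis genes counted 1 (2.94%) higher and 2 (5.88%) lower of 34 (median 0.02), below the shares of all genes. Bcl2l1, which protects from apoptosis, had 165, 131, 161, 142 and 167 CPM in rLh fish, against 205, 183, 206, 218 and 177 CPM in saline fish, without overlap (-0.37 ± 0.13). Birc6, an inhibitor of apoptosis, was lower by 0.26 ± 0.09 and casp3a, an executioner caspase, higher by 0.28 ± 0.12. Axon, neuron and vesicle genes counted 4 higher and 2 lower of 42 (median 0.00), among them vamp2, a vesicle SNARE, lower by 0.53 ± 0.19.

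Among the genes on the higher side, DESeq2 called hoxa3a whichever fish was left out. It is a homeobox transcription factor on LG20 at 10168419 to 10198313. Hoxa3a had 17.0, 17.8, 20.7, 26.0 and 21.5 CPM in rLh fish, against 13.3, 11.7, 10.97, 13.3 and 13.9 CPM in saline fish, every rLh fish lying above every saline fish. Its log2 fold change was 0.71 ± 0.13, a fold of 1.63 (DESeq2 adjusted p = 0.00111, edgeR adjusted p = 0.342). S1pr3a, a receptor of sphingosine 1-phosphate, had 11.3, 12.4, 16.7, 19.3 and 11.5 CPM in rLh fish, against 8.18, 8.51, 5.13, 5.19 and 9.42 CPM in saline fish (0.98 ± 0.23, DESeq2 adjusted p = 0.0287). Gripap1, a protein of recycling endosomes, had 44.1, 43.0, 54.8, 50.5 and 48.9 CPM in rLh fish, against 39.9, 31.4, 37.4, 32.3 and 38.6 CPM in saline fish (0.43 ± 0.09, DESeq2 adjusted p = 0.0102). Neither overlapped between the groups.

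Other genes called on the higher side encode membrane and regulatory proteins. LOC122760415, matched to the scramblase family member ANO5, rose to 122, 137, 136, 174 and 124 CPM in rLh fish, against 83.5, 70.0, 104, 93.6 and 107 CPM in saline fish (0.60 ± 0.14, DESeq2 adjusted p = 0.0349). LOC122781726, matched to the zinc transporter SLC39A9, rose by 0.50 ± 0.12 (DESeq2 adjusted p = 0.0395), and rnf180b, a ubiquitin ligase, by 0.35 ± 0.08 (DESeq2 adjusted p = 0.0164). LOC122768674, matched to the transcription factor ASCL5, had 3.78, 4.11, 5.98, 5.72 and 6.78 CPM in rLh fish, against 2.54, 3.09, 1.93, 1.97 and 2.24 CPM in saline fish (1.17 ± 0.30, DESeq2 adjusted p = 0.0478). LOC122769409, matched to the immune inhibitor VTCN1, had 1.87, 6.06, 2.14, 2.42 and 2.51 CPM in rLh fish, against 1.298, 1.305, 0.932, 0.870 and 1.64 CPM in saline fish (1.32 ± 0.32, DESeq2 adjusted p = 0.0334), with rLh 64 far above the rest.

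On the lower side, uspl1, a SUMO isopeptidase of Cajal bodies, had 167, 149, 141, 139 and 146 CPM in rLh fish, against 201, 181, 181, 175 and 177 CPM in saline fish (-0.30 ± 0.06, DESeq2 adjusted p = 0.00215). Disp3, a sterol-sensing domain protein of the Dispatched family, had 17.3, 14.0, 18.1, 13.8 and 22.4 CPM in rLh fish, against 21.3, 28.4, 24.5, 30.3 and 29.5 CPM in saline fish (-0.65 ± 0.14, DESeq2 adjusted p = 0.00783). Only rLh 68 reached the lowest saline fish, and disp3 was also lower than in rFsh fish (-0.58 ± 0.14, edgeR adjusted p = 0.323). Vti1a, a SNARE of the Golgi, had 30.0, 31.0, 28.2, 27.5 and 31.4 CPM in rLh fish, against 35.3, 34.1, 39.9, 38.6 and 42.5 CPM in saline fish (-0.36 ± 0.09, DESeq2 adjusted p = 0.0340). Get1, which inserts tail-anchored proteins in the endoplasmic reticulum, fell by 0.40 ± 0.09 (DESeq2 adjusted p = 0.0154), and LOC122781030, matched to the exocyst subunit EXOC4, by 0.35 ± 0.08 (DESeq2 adjusted p = 0.0334). None of these 3 genes overlapped between the groups. S1pr3a, rnf180b, aaas, btaf1, the ANO5, SLC39A9, TNPO2 and ANKRD34B matches and the scaffold loci were singled out after their values were seen.

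Aaas, a nuclear pore protein, had 22.8, 20.6, 21.8, 21.5 and 22.7 CPM in rLh fish, against 26.0, 27.6, 27.4, 24.1 and 24.4 CPM in saline fish (-0.24 ± 0.07, DESeq2 adjusted p = 0.0275). LOC122771217, matched to the import receptor TNPO2, had 34.9, 32.0, 33.95, 31.8 and 32.8 CPM in rLh fish, against 41.0, 39.4, 39.8, 37.3 and 38.01 CPM in saline fish (-0.24 ± 0.07, DESeq2 adjusted p = 0.0419). Both were separated between the groups, each 1.18-fold lower. Btaf1, an ATPase that removes TBP from DNA, fell by 0.16 ± 0.05 (DESeq2 adjusted p = 0.0144). Dlgap2a, a scaffold of synapses, fell by 0.41 ± 0.10 and pdxdc1 by 0.42 ± 0.10 (DESeq2 adjusted p = 0.0341 for each). LOC122779972, matched to TMEM200A, had 60.7, 35.5, 58.0, 43.5 and 55.4 CPM in rLh fish, against 71.3, 75.7, 77.1, 99.0 and 72.3 CPM in saline fish (-0.64 ± 0.14, DESeq2 adjusted p = 0.0207).

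**Figure D4:**
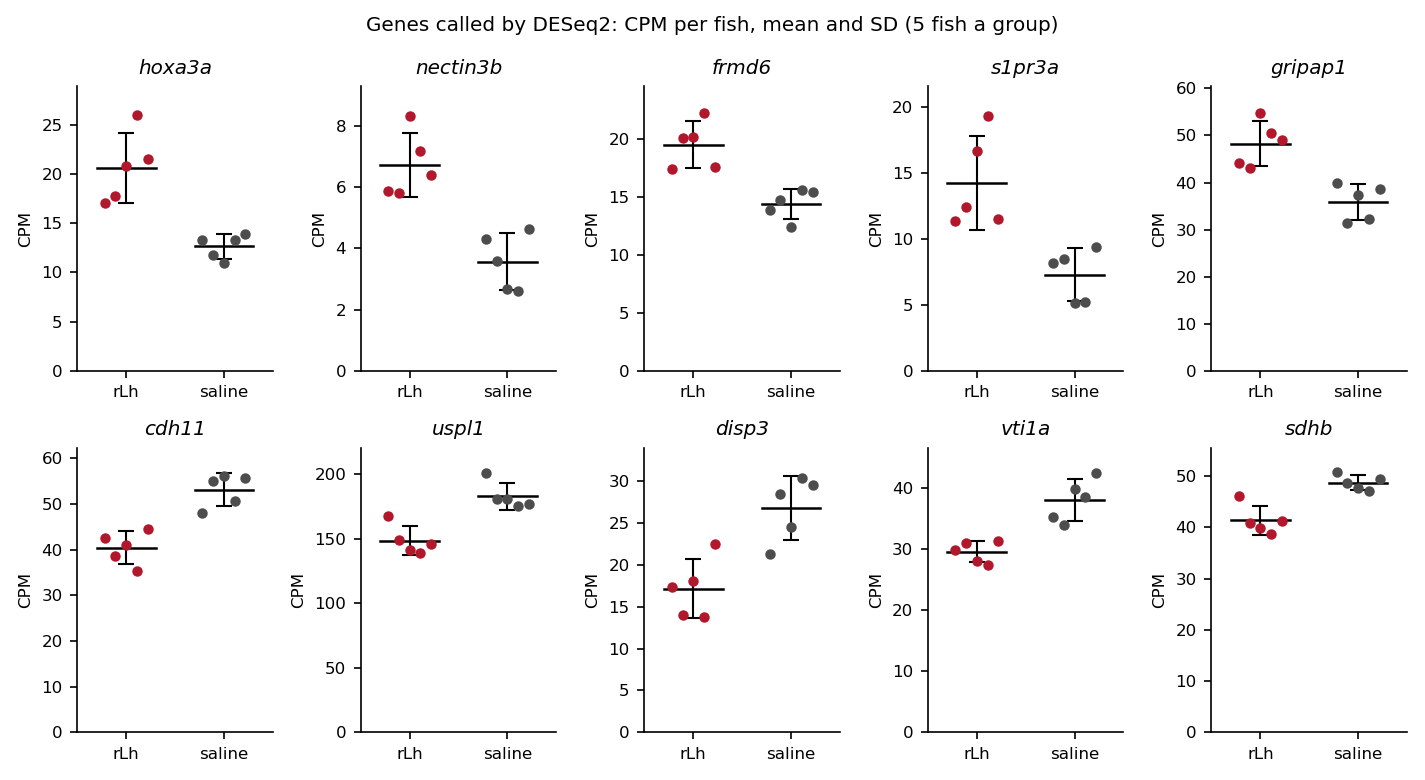
Levels of 10 genes called by DESeq2 (y axis, CPM from 0) in each rLh fish (left) and saline fish (right), with the mean (line) and SD (bar) of 5 fish a group. The upper panels show genes higher after rLh, such as hoxa3a at 17.0 to 26.0 CPM in rLh fish against 10.97 to 13.9 CPM in saline fish, and the lower panels genes lower after rLh.

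Of the 47 genes called by DESeq2, 35 did not overlap between the groups, beside 447 of all 21097 tested genes. Call and order come from the same fish, so the order adds no separate support. The call of 3 genes (hoxa3a, cdh11 and uspl1) held whichever fish was left out. F9b, described below, had no adjusted p in 1 leave-out and at most 0.000548 in the others. LOC122760670, LOC122760671, LOC122760678 and LOC122782579 likewise lost the call only where DESeq2 gave no adjusted p. DESeq2 called 449 genes higher and 492 lower without saline 68, and 71 higher and 149 lower without rLh 68. It called 13 higher and 4 lower without rLh 64, and 13 higher and 2 lower without rLh 67, so the count depended on which fish stood in each group. Saline 68 and rLh 68 were the fish nearest the other group. On the first principal component of the tested genes (25.2% of the variance), the rLh fish lay at 10.8, 29.4, 23.2, 34.4 and -3.49, against -8.59, -18.9, -33.0, -46.8 and 12.9 for the saline fish (exact two-sided permutation test, p = 0.0238). Genes with no overlap numbered 887 higher and 1112 lower when saline 68 was set aside, against 204 and 243 with all fish. Setting aside any fish raised both counts, as fewer fish are more easily separated. The counts were 579 and 691 without rLh 68, and 246 and 265, the smallest rise, without rLh 67. In the 12 fish, from which saline 68 and rLh 68 were absent, 21 of 56 DNA replication genes were higher at an unadjusted p under 0.05, beside 10.3% of all tested genes. At that p, 24 of 73 ribosomal protein, 24 of 56 translation and 41 of 130 chromatin genes were lower, beside 12.4%. The share lower in the highest level class, 16.2% in the 10 fish, is not given for the 12 fish. The part of level in these counts was not tested.

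Among the genes higher at an unadjusted p under 0.05, saline 66 was the lowest fish in 32.6% and saline 67 in 32.0%, and rLh 64 was the highest in 37.5% and rLh 67 in 35.9%. Among those lower, rLh 64 was the lowest fish in 51.3%, although it was the lowest of the 10 in 15.6% of all tested genes. These shares describe the genes that the contrast picked, with no test.

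The genes with the largest fold changes were uneven among the rLh fish. F9b, matched by name to coagulation factor IX, a plasma protein made by the liver, lies on LG13 at 2689611 to 2695558. It had 3.27, 0.573, 9.81, 11.03 and 1.303 CPM in rLh fish, 0.119, 0.587, 0.116, 0.0908 and 0.287 CPM in rFsh fish 61, 62, 64, 68 and 69, and 0.241, 0.464, 0.247, 0.104 and 0.351 CPM in saline fish. Every rLh fish lay above every saline fish, by a small margin in rLh 64 and by far in rLh 66 and 67, and the log2 fold change was 4.26 ± 0.76 (DESeq2 adjusted p = 8.6e-06). The difference from rFsh fish was 4.51 ± 0.85 (edgeR adjusted p = 0.224). Of 24 liver and plasma genes, f9b among them, 11 were higher (median -0.03), 2 at an unadjusted p under 0.05, with a summed level of 204 to 320 CPM in rLh fish, against 210.1 to 407 CPM in saline fish. C7b, matched to complement component 7, had 3.93, 2.32, 9.82, 9.85 and 3.59 CPM in rLh fish, against 1.77, 0.942, 1.74, 1.32 and 2.72 CPM in saline fish (1.79 ± 0.38, DESeq2 adjusted p = 0.00377), again highest in rLh 66 and 67.

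A pair of neighbouring globin loci on LG19 behaved alike. LOC122785899 (3513234 to 3514396, matched to an alpha globin) had 7.63, 1.74, 27.9, 23.6 and 5.16 CPM in rLh fish, 0.637, 21.9, 1.23, 1.78 and 0.532 CPM in rFsh fish and 0.136, 0.246, 0.247, 0.960 and 1.36 CPM in saline fish. LOC122785900 (3515600 to 3517274, matched to HBZ) had 19.6, 4.88, 50.4, 75.5 and 9.35 CPM in rLh fish, 1.54, 20.2, 1.34, 4.47 and 0.776 CPM in rFsh fish and 0.345, 0.464, 0.314, 2.56 and 2.75 CPM in saline fish. All rLh fish exceeded all saline fish in both (4.55 ± 1.12 and 4.70 ± 0.97, DESeq2 adjusted p = 0.0150 and adjusted p = 0.00363), and rFsh 62 was as high as the rLh fish. The 12 red blood cell genes tested had a summed level of 145 to 186 CPM in rLh fish, against 141 to 165 CPM in saline fish, with 9 higher, 2 at an unadjusted p under 0.05. Their part in the globin values was not tested, and reads may be shared between the copies.

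A run of loci on unplaced scaffolds was high in 1 fish. LOC122760678, matched to GAA, had 111, 1246, 104, 4 and 0 counts in rLh fish, 3, 2, 4, 0 and 7 counts in rFsh fish and 0, 2, 1, 2 and 0 counts in saline fish. LOC122760670, a noncoding RNA, had 115, 889, 107, 6 and 5 counts in rLh fish, 7, 13, 6, 2 and 6 counts in rFsh fish and 2, 3, 2, 6 and 1 counts in saline fish. RLh 64 held 85.2% and 78.9% of the summed CPM of these genes over the 10 fish, rLh 63 and 66 stood well below it and rLh 67 and 68 near the saline fish. Of the 15 loci of this numbering with at least 50 counts in a fish, 6 were called by DESeq2, and LOC122760677, matched to the antiviral gene SAMD9, followed the same fish at 1485, 8901, 1565, 638 and 449 counts in rLh fish, against 1544, 694, 1114, 707 and 400 counts in saline fish.

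Likewise LOC122782579, matched to ANKRD34B, had 4.05, 0.606, 0.258, 23.3 and 1.68 CPM in rLh fish, against 0.283, 0.217, 0.162, 0.143 and 0.250 CPM in saline fish (DESeq2 adjusted p = 0.000290), with 75.3% of its summed CPM in rLh 67. LOC122783202, a noncoding RNA also on LG16, held 70.0% in the same fish. Myt1lb, a neural zinc finger factor, was at 27.6 CPM in rLh 67 and between 2.94 and 6.27 CPM in the other rLh fish, against 1.40 to 3.42 CPM in saline fish.

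**Figure D5:**
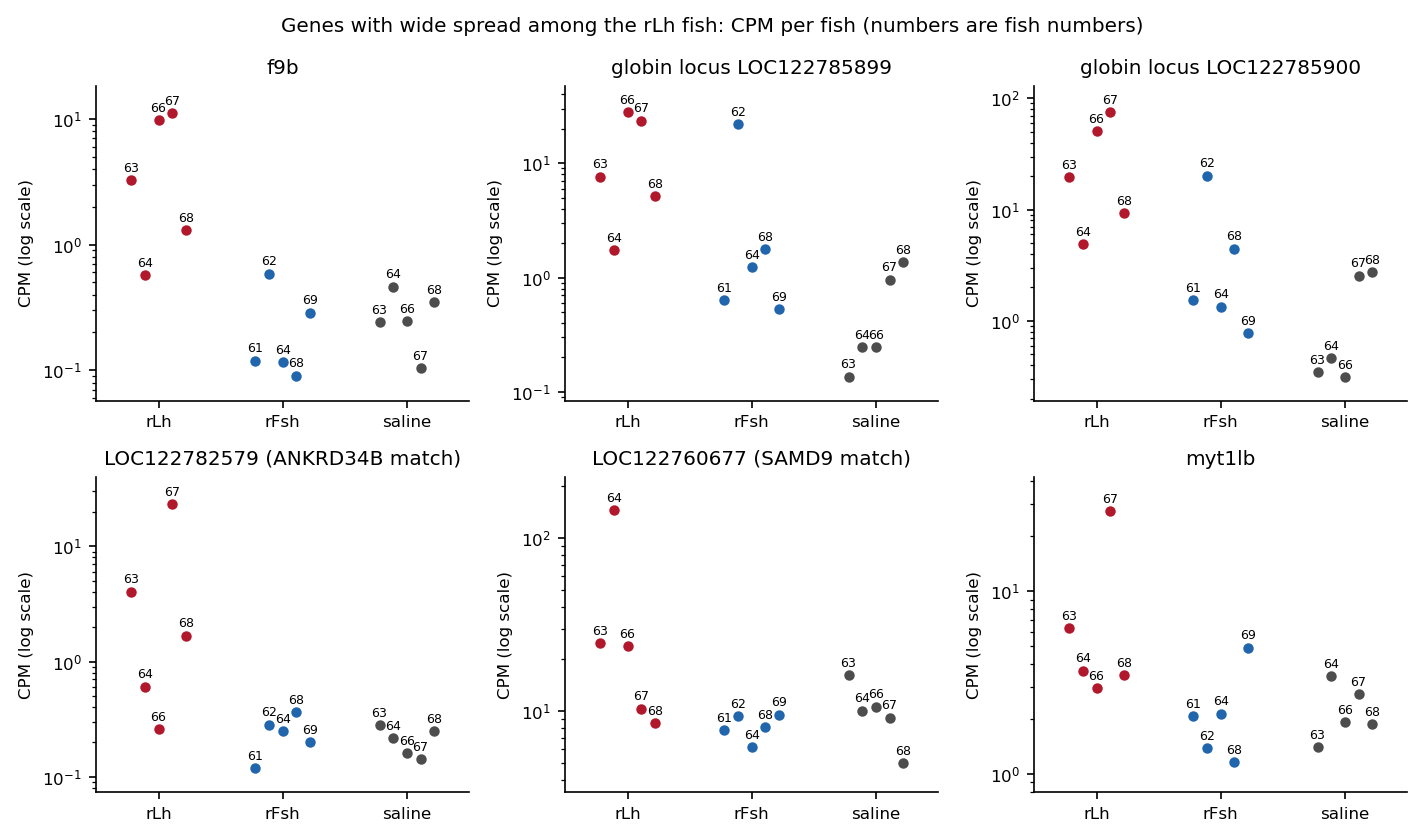
Levels of 6 genes with a wide spread among rLh fish (y axis, CPM on a log scale) in rLh, rFsh and saline fish, numbered by fish. F9b and the globin loci are highest in rLh 66 and 67, LOC122760677 in rLh 64, and LOC122782579 and myt1lb in rLh 67.

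Marker genes of other cell types were counted in the same way. Immunoglobulin segments amounted to 15.3 to 28.7 per 1000000 counts in rLh fish, against 6.15 to 17.1 in saline fish (exact two-sided permutation test, p = 0.0317), with 13 of 14 segments higher and 3 at an unadjusted p under 0.05. In rFsh fish they amounted to 29.9 to 117. B and plasma cell genes counted 1 higher of 8 (summed level 307 to 479 CPM in rLh fish, against 210.4 to 396 CPM in saline fish). T and NK cell genes counted 0 higher and 1 lower of 12, macrophage and granulocyte genes 0 and 1 of 14, endothelial genes 0 and 1 of 21, skeletal muscle genes 1 and 1 of 28, and smooth muscle genes 0 and 0 of 13. Sertoli cell genes counted 0 of 13 on either side, with a summed level of 3695 to 4201 CPM in rLh fish, against 3519 to 4740 CPM in saline fish. The part of these cells in the other lists was not tested.

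With rFsh fish as the comparison, edgeR again called 0 genes, with 1045 (4.95%) higher and 1029 (4.88%) lower in rLh fish at an unadjusted p under 0.05. Both hormones were set against the same saline fish, so their values are only given side by side. Differences from rFsh fish rest on the same rLh fish as those from saline fish, so they add no separate support. The median log2 fold change of cytosolic ribosomal proteins was -0.13 for rLh and -0.38 for rFsh against saline, that of mitotic genes 0.13 and 0.29, that of meiosis genes 0.11 and 0.27, and that of DNA replication genes 0.20 and 0.11. Cdh11 had 50.6, 48.6, 43.5, 50.9 and 55.1 CPM in the rFsh fish, within or below the saline range of 48.0 to 56.2 CPM and, but for rFsh 64, above every rLh fish.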

How the data were processed

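Per the methods, testis RNA (RIN 8.7 to 9.8) was amplified by SMARTseq2, sequenced as 100 bp pairs and assigned to genes of build IFAPA_SoseM_1 with RSubread. The deposited values are raw gene counts, which the authors made without molecular identifiers, so p values cover the spread between fish. The submitters' processing notes name CASAVA 1.8, FastQC 0.11.9, cutadapt 3.4, Subread 2.0.1 and R 4.0.4, and the study used DESeq2. The methods state 4 libraries per group: of 125 ways to drop 1 fish per group, leaving out rLh 68, rFsh 62 and saline 68 gave the mean counts printed with the study (median relative difference 6.37e-07, next best 0.0148).

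Here edgeR 4.0.16 (TMM, quasi-likelihood test, 1 fit over 15 fish in 3 groups) ran on genes with at least 50 counts in at least 1 of the 10 fish, with Benjamini-Hochberg adjustment over 21097 genes. The SE is the log2 fold change divided by the root of F. DESeq2 1.42.0 and limma-voom 3.58.1 were alternatives, with other scalings, filters, fish left out and, chosen after the data were seen, equal depth and library totals. R 4.3.3, Python 3.11, numpy 2.4.6, pandas 2.3.3, scipy 1.17.1 and matplotlib 3.10.9 were used, and the scripts were tested on simulated data. The deposited table holds no columns of the authors' comparisons.

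The 49 lists and the genes named were chosen with earlier results of these data known. Named were up to 10 genes per direction with the largest edgeR fold among non-overlapping genes called by DESeq2. So were up to 10 per direction with the smallest edgeR p, and up to 3 per list and direction with the smallest p under 0.05. The gonadotropin receptor and steroid genes, and 41 oxytocin, relaxin, Hippo and junction genes taken from those the study names, were named too. Some of these are not reported here. Lists hold genes by symbol and no LOC loci. Gene symbols are those of RefSeq, which matched 21077 of the tested genes, and human matches of LOC genes are the study's. No sequence was used here.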

Additional observations from a re-analysis of the deposited data

Results flagged for a closer look

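In 13 of the 180 groups of 5 fish examined, 1 fish stood apart from the other 4 by Dixon's criterion, where chance gives about 1 in 20. RLh 67 was the high fish for lhcgr (7.44 on the log2 CPM scale) and for the mean log2 CPM, relative to saline, of Leydig cell genes (0.97), of gonadotropin and steroid receptors (0.28) and of TGF-beta, activin and BMP genes (0.27). RLh 64 was the high fish for LOC122769409, the VTCN1 match (2.61 on the log2 CPM scale). RLh 63 was the high fish for translation initiation and elongation (-0.0146) and the low fish for ion channels (-0.0510). Among saline fish, number 67 was high for LOC122779972 (6.63) and low for adherens junctions and desmosomes (-0.13), number 63 was high for uspl1 (7.65), number 64 for spermatogonial genes (0.11), number 66 for Notch and Hedgehog genes (0.10) and number 68 for Hippo pathway genes (0.0727).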

How the results depend on the processing

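Depth limited genes of low level: 19328 to 19834 genes had at least 50 counts in the rLh libraries and 19921 to 20471 in the deeper saline libraries.

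Under these alternatives 0 of the called values changed sign, while the counts moved. Genes called for rLh against saline by edgeR numbered 0 as reported, 135 in 12 fish with 4 per group (rLh 68, saline 68 and rFsh 62 left out, smallest adjusted p 0.0496), 47 by DESeq2, and 0 to 2 when fish were left out in turn (2 without rLh 64, rLh 67 or rLh 68). Genes at an unadjusted p under 0.05, higher after rLh, numbered 1244 as reported, 2172 in the 12 fish and 838 to 1939 when fish were left out. Genes at an unadjusted p under 0.05, lower after rLh, numbered 1543 as reported, 2617 in the 12 fish, 995 with library totals alone and 791 to 2118 when fish were left out. Genes called by DESeq2 for rLh against saline numbered 47 as reported, 342 in the 10 fish fitted without rFsh, 2230 in the 12 fish and 15 to 941 when fish were left out. The lowest counts came without rLh 64, rLh 66, rLh 67, saline 66 or saline 67 and the highest without rLh 68 or saline 68, and without saline 63 DESeq2 called 75. The cause was not tested. The 12 fish lack the rLh and the saline fish that lay nearest the other group.

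The other scalings, filters and edgeR forms called 0 genes, with 1174 to 1469 higher and 1447 to 1599 lower at that p, apart from library totals alone (1808 higher, 995 lower) and the 10 fish fitted without rFsh, with 1437 higher, 1738 lower and 0 called. Of 232 named genes tested, 197 passed an unadjusted p under 0.05 and 108 of them passed in every setting. Of 1225 list medians, 8 moved by more than the spread between fish, and medians near 0 changed sign: axon and neuron genes in 15 of 25 alternatives, skeletal muscle in 11, Notch and Hedgehog in 8, gap junctions in 7 (0.12 in the 12 fish), immediate early genes in 4, and oxidative phosphorylation and chaperones with library totals alone. The endothelial median changed sign in 5 alternatives, and those of apoptosis, smooth muscle, and liver and plasma genes in 4 each. Glycolysis and T and NK cell medians did so in 3 each, and that of Sertoli cell genes in 2. Hippo, TGF-beta, cAMP, retinoic acid and ion channel medians did so in 1 each.

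Fish of different groups share numbers, but the deviations of same-numbered rLh and saline fish correlated at 0.49, -0.02, -0.22, -0.25 and 0.01, and 1 of 5 rLh fish correlated best with its own number, so the numbers were not taken as pairs. With the replicate block edgeR called 1 gene, with 1173 higher and 1285 lower at an unadjusted p under 0.05.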

Other observations

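Long noncoding RNAs stayed near the shares of all tested genes. Of 821 tested, 46 were higher and 71 lower after rLh at an unadjusted p under 0.05. The share higher was slightly below the 5.90% of all tested genes, and the share lower slightly above their 7.31%. Among the loci without a name that DESeq2 called, LOC122768576 was higher by 1.15 on the log2 scale (DESeq2 adjusted p = 0.0164) and LOC122765249 by 2.45 (DESeq2 adjusted p = 0.0207), and both differed from rFsh fish at an unadjusted edgeR p under 0.05, by 1.07 and 1.61. LOC122782945 (-0.84) and LOC122770639 (-0.82), also called by DESeq2, were lower.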
